A study of Mus musculus with 6 samples.

Results

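The genes described here are 47 genes of ribosome biogenesis, RNA polymerase I and the growth program of the transcription factor Myc, out of 21526 gene symbols counted in mouse gastric corpus epithelium. They are the symbols that begin with Nop, Utp or Rrp followed by a digit, the RNA polymerase I subunit genes Polr1a to Polr1e, and 16 further genes taken by name: Myc, Ncl, Npm1, Npm3, Fbl, Dkc1, Bop1, Wdr12, Wdr43, Wdr74, Nolc1, Pes1, Gnl3, Odc1, Srm and Cad. The rule goes by gene name. All 47 passed the filter on low counts, among 14600 genes tested.

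RNA was sequenced from 3 libraries of Yap-activated gastric cancer and 3 libraries of normal stomach (Normal). The Yap-activated mice had the genotype CluCreERT2;R26rtTA;HA-Yap+, in which a tamoxifen-dependent Cre recombinase at the Clu gene acts in cells that express Clu, and rtTA at the Rosa26 locus switches on an HA-tagged Yap transgene when doxycycline is present. Normal mice were wild-type and carried none of these alleles, so the alleles and the activation of Yap cannot be told apart as sources of a difference. The labels give both groups the same 2 mg of tamoxifen on each of 5 days and doxycycline food for the final 14 days. Cells were freed from the corpus with EDTA without culture, and the sources used here give no ages. The labels do not say that each library came from a separate mouse, so a p-value here reflects how far these libraries scatter, part of which may be technical.

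Ribosomes are built in the nucleolus. RNA polymerase I transcribes a long precursor ribosomal RNA (rRNA), which small nucleolar ribonucleoproteins (snoRNPs) modify and the small subunit processome folds and cuts, while further factors mature the 40S and 60S subunits. Myc is known to raise the transcription of many of these genes in growing cells, together with enzymes of polyamine and nucleotide synthesis. In the resting corpus the chief cells make large amounts of secreted protein, and the dividing cells of the isthmus supply the gland.

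The 6 libraries held 25580734 to 44295619 counts in Yap-activated tissue and 36815754 to 48440033 in Normal. Levels are given as CPM after scaling by TMM, which matches libraries on the bulk of their genes. Yap1 had 3085, 1468 and 1651 CPM in Yap-activated libraries, against 100.3, 104.5 and 106.0 CPM in Normal. The 10 most abundant genes took 9.61% to 15.3% of counts in Yap-activated libraries and 30.5% to 38.5% in Normal, and mitochondrial genes took 7.49% to 13.8% and 15.1% to 27.6%. Levels of cell type markers also differed. All 8 parietal cell markers and all 5 tested chief cell markers were lower, with summed levels of 712 to 1014 and 152 to 186 CPM in Yap-activated libraries and 23387 to 31611 and 87939 to 137719 CPM in Normal (Lipf, a chief cell marker, was at 0 in every library). All 4 surface mucous markers were lower as well, at 1377 to 2113 CPM in sum in Yap-activated libraries and 42996 to 50222 CPM in Normal, and so were 4 of 5 enteroendocrine markers (20.7 to 38.2 and 600.5 to 809.6 CPM), all 5 endothelial markers (27.6 to 48.8 and 150.4 to 164 CPM) and 3 of 6 fibroblast markers (369 to 614 and 796 to 1198 CPM). Of 11 markers of cycling cells 10 were higher, summing to 498 to 742 CPM in Yap-activated libraries and 223 to 262 CPM in Normal. Of the 4 epithelial markers Epcam, Krt8 and Krt18 were higher, and Cdh1 did not pass, with groups that overlapped. The 4 summed to 7348 to 8218 CPM in Yap-activated libraries and 3450 to 4236 CPM in Normal. Of 8 tested myeloid markers 6 were higher, at 147 to 798 CPM in all against 120 to 128 CPM. Of 4 mucous neck markers 2 were higher (Cftr and Aqp5) and 1 was lower (Muc6). Of 5 smooth muscle markers 2 were lower, and of 3 tested lymphoid markers 0 were higher and 0 lower. The part of these marker differences in the results below was not tested. Since each library mixes the RNA of all its cells, fewer cells of a type and less RNA per cell cannot be told apart.

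In Yap-activated tissue 13 of the 47 genes rose and 6 fell, and the threshold was not passed by 28 (an adjusted p of 0.05 in the quasi-likelihood test of edgeR, with p-values adjusted over all genes tested by the Benjamini-Hochberg method). That is 27.7% higher and 12.8% lower, where 29.8% of all genes tested were higher, 29.7% lower and 59.5% called in either direction. The groups did not overlap for 20 of the 47 (42.6%), with the Yap-activated libraries above in 13 and below in 7; among all genes tested that held for 67.6%, with 33.2% above and 34.4% below. Myc, Npm1 and Rrp1b rose by more than 2-fold, and none of the 47 fell by as much; of all genes tested, 16.9% rose and 16.1% fell past that size. The risers lay among nucleolar chaperones (Npm1, Npm3, Ncl), core proteins of box C/D snoRNPs (Nop56, Nop58), some factors of the small subunit processome (Utp3, Utp15, Wdr43) and some of the 60S subunit (Rrp1b, Gnl3, Rrp15, Nop2), besides Myc. The 6 that fell were Polr1a, Utp11, Cad, Nop10, Rrp12 and Nop53. Fitted fold changes ran from -0.68 for Polr1a to 1.37 for Myc on the log2 scale, with a median of 0.16, beside 0.01 over all genes tested. A fold within 1.5 in either direction was found for 36 of the 47, or 76.6%, and for 46.7% of all genes tested.

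**Figure D1:**
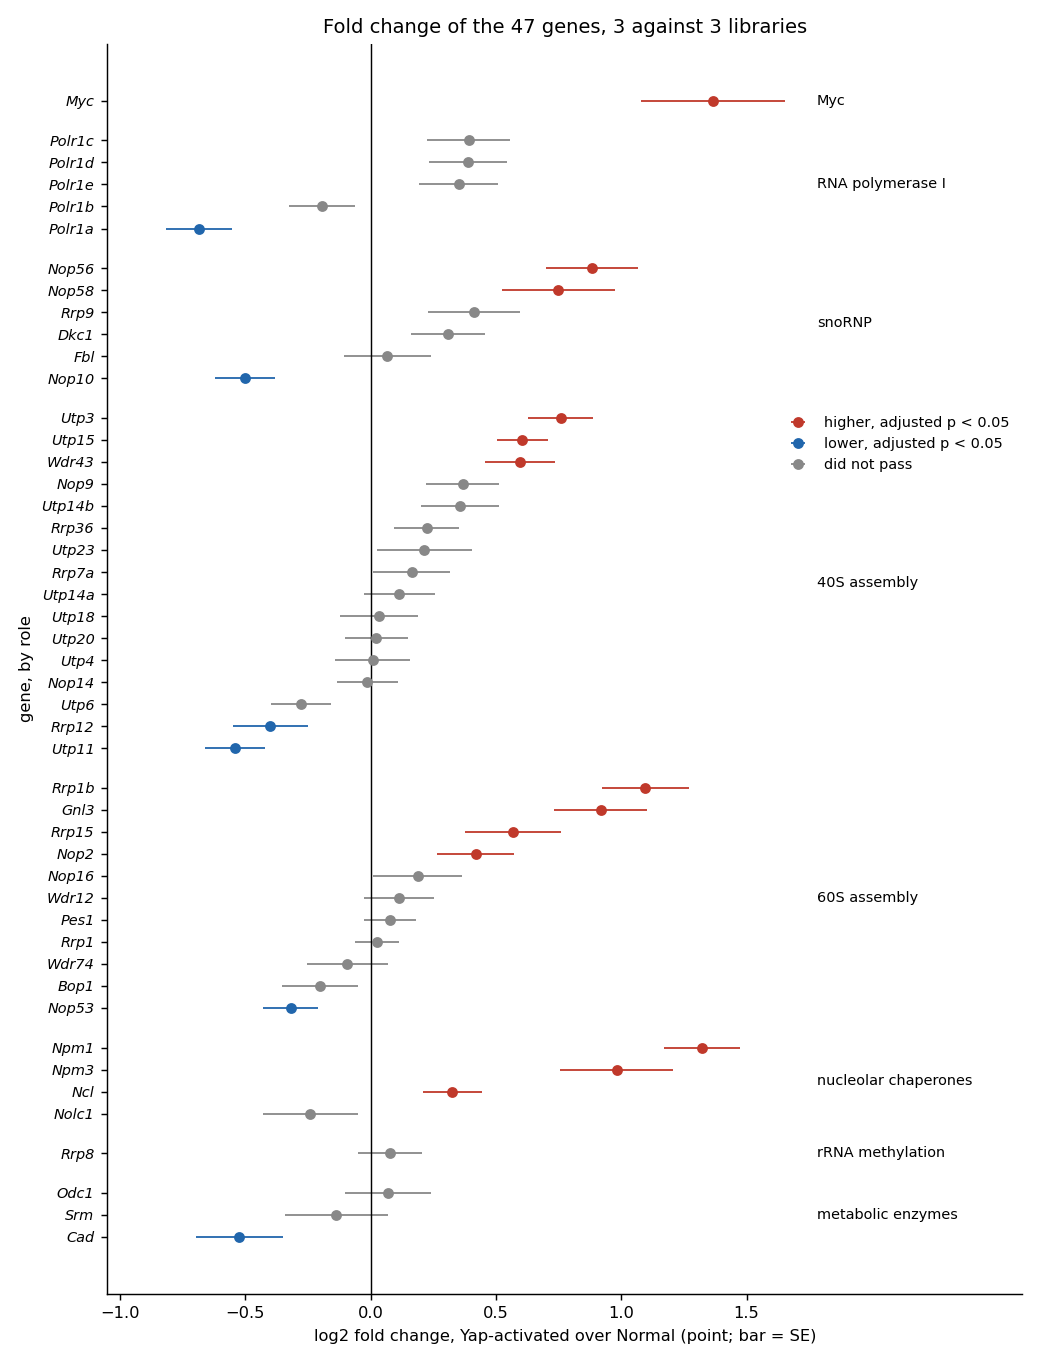
Log2 fold change of each of the 47 genes, Yap-activated over Normal (x axis; points are edgeR estimates, bars their SE, 3 libraries a group), grouped by role down the y axis. The 13 genes in red rose, the 6 in blue fell, and the 28 in grey did not pass; each role with more than 1 gene holds genes that did not pass.

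How the libraries are scaled bears on all these directions. The 47 genes together took 0.344%, 0.344% and 0.274% of all counts in Yap-activated libraries, against 0.184%, 0.195% and 0.175% in Normal, without overlap. After TMM scaling their summed level was 2981, 2889 and 2254 CPM in Yap-activated libraries and 2291, 2247 and 2038 CPM in Normal, and the third Yap-activated library lay within the Normal range. Scaling by library totals alone shifted the median over all tested genes by 0.49 (log2) upward; 36 of the 47 were called higher and 0 lower, and 76.6% of all calls were higher, against 50.0% with TMM. On that scale 4 of the 6 genes that fell were still below 0 without passing (Polr1a at -0.20), while Nop53 and Rrp12 were at 0.17 and 0.088. Ratios of reads between genes of the same library do not depend on the scaling, and some are given below. In all 16 were computed, between genes of shared complexes, paralogs, other pairs among the 47 genes, and enzymes and Myc. They were chosen after their values were seen, and 13 of the 16 did not overlap between the groups.

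**Figure D2:**
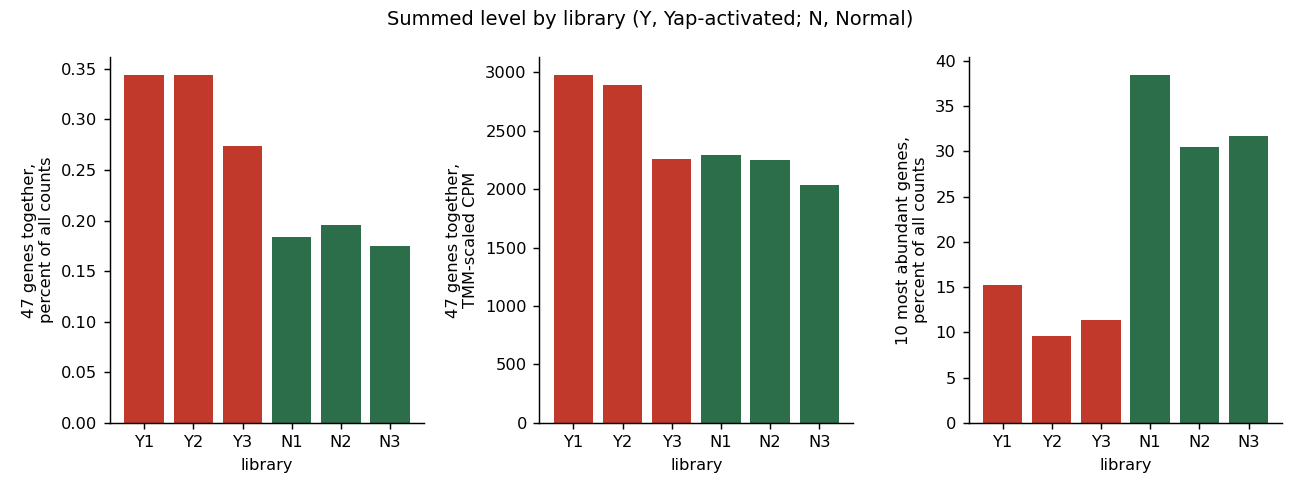
Summed level in each library for the 47 genes as percent of all counts (left) and as TMM-scaled CPM (middle), and the percent of counts in the 10 most abundant genes (right); Y1 to Y3 are Yap-activated and N1 to N3 Normal libraries. The percent of counts separates the groups, whereas the scaled sum of Y3 (2254 CPM) falls between those of N2 (2247 CPM) and N1 (2291 CPM).

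The 47 genes also varied together between libraries of the same group. Of the 3 Yap-activated libraries, replicate 3 had the lowest level for 46 of the 47 genes, Ncl and Npm1 included, and Nop10 was lowest in replicate 2. Over all genes tested replicate 3 was the lowest of the 3 for 34.1%. Among Normal libraries replicate 3 was lowest for 39 of the 47 genes, against 35.3% of all genes tested. The 195 other pathway genes described below shared this order, with replicate 3 lowest for 154 (79.0%) among Yap-activated libraries and for 119 (61.0%) among Normal. The median of the 47 genes stood at 0.31, 0.25 and -0.03 on the log2 scale in the Yap-activated libraries, relative to the Normal mean of each gene. Without Yap-activated replicate 3 there were 21 genes called higher, the 13 and 8 more (Dkc1, Nop16, Nop9, Polr1c, Polr1d, Polr1e, Rrp9 and Utp14b), and 3 lower. That replicate also had the lowest sum of cycling cell markers of its group, 498 CPM against 572 and 742 CPM, and the most counts of its group, 44295619. Normal replicate 3 also had the lowest such sum of its group, 223 CPM against 262 and 227 CPM, but the fewest counts, 36815754. The part of either in this pattern was not tested.

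**Figure D3:**
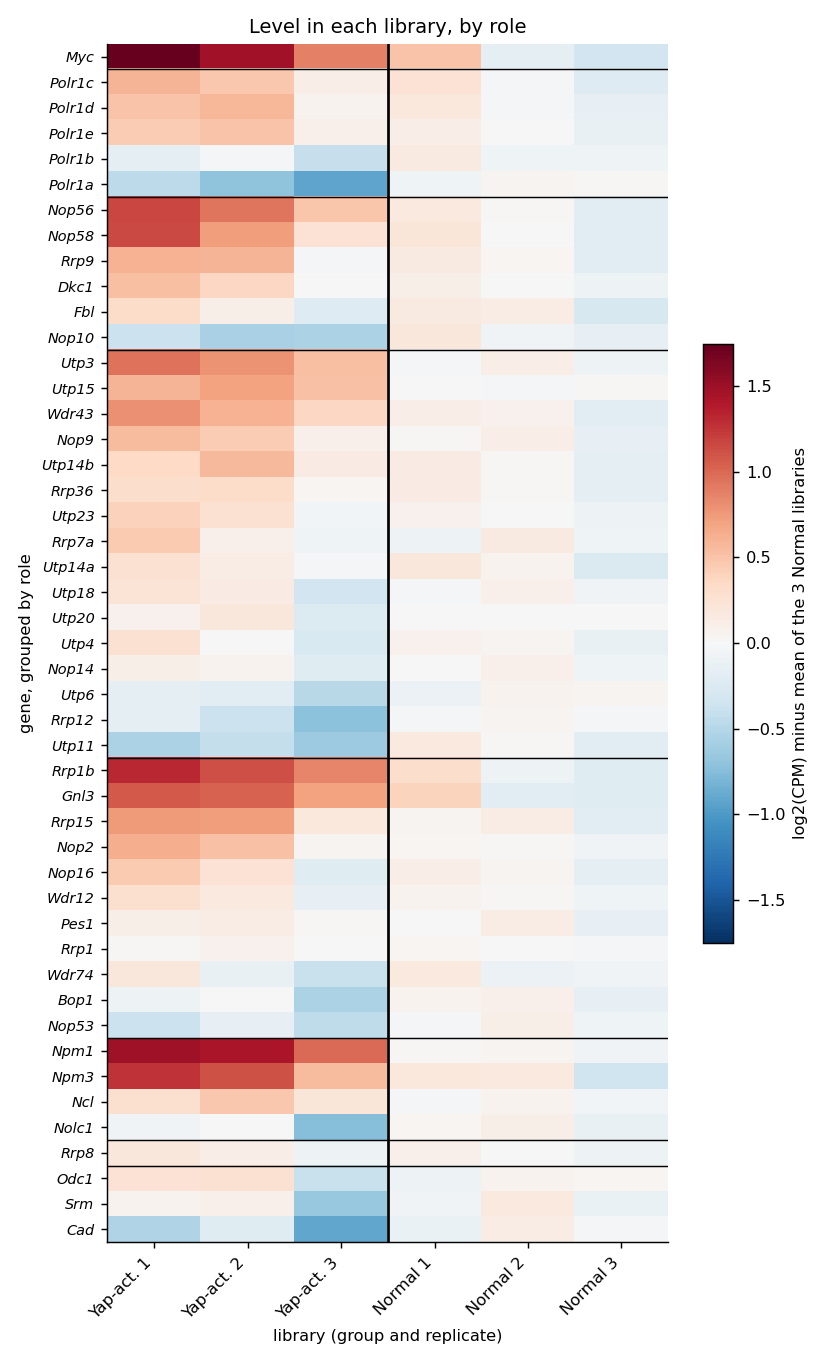
Level of each gene in each library as log2 CPM minus the mean of the 3 Normal libraries (colour scale), with Yap-activated libraries on the left and Normal on the right and genes grouped by role. Yap-activated replicate 3 has the lowest level of its group for 46 of 47 genes, and Normal replicate 3 for 39 of 47.

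Myc encodes the transcription factor that gives this program its name. It had 107, 88.0 and 58.5 CPM in Yap-activated libraries and 44.8, 28.4 and 25.1 CPM in Normal. Every Yap-activated library was above every Normal library, and in both groups replicate 1 was highest and replicate 3 lowest. By edgeR the difference was 1.37 on the log2 scale, with an SE of 0.29 and an adjusted p of 0.00545. Myc lies on chromosome 15 from 61985391 to 61990374 on the plus strand (GRCm38). A further 16 genes were listed with the Myc and Max network, including Ptma, which is a Myc target and not a member of the network. Of these 16 genes 6 rose (Ptma included, at 0.51), 2 fell and the other 8 were not called. Mycn, a paralog of Myc, had 13.1, 18.7 and 12.0 CPM in Yap-activated libraries against 1.28, 1.64 and 1.30 CPM in Normal, a log2 fold change of 3.37 (SE 0.24). Mxd1, which encodes a partner of Max that represses Myc sites, rose by 2.13, and its relative Mxd4 fell by 1.29, both with no overlap between the groups. Mxd3 rose by 1.03 and Mlxipl, which encodes a glucose-responsive factor of the same network, fell by 1.04. Leaving out Normal replicate 2 ended both calls (adjusted p = 0.0530 and 0.0567, edgeR), and leaving out Normal replicate 1 ended that of Mlxipl (0.0542). Mlxipl also did not pass with library totals alone, at -0.55 (adjusted p = 0.122). Max itself was at 0.14 and did not pass.

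Myc and Max bind the E-box, whose canonical form is CACGTG and reads the same on both strands. Promoters from 250 bases before to 50 after the start were matched for 37 of the 47 genes in RefSeq's table (GRCm38.p6). CACGTG was found in 8 of these 37 (21.6%) and in 11.1% of the 11501 tested genes with a promoter in the table; within the 250 bases before the start the shares were 10.8% and 9.38%. Of the 11 matched genes that rose 2 held it, Nop2 before and Wdr43 after the start, and of the 23 that did not pass 6 held it. A search for the related form CACGCG or its reverse complement CGCGTG was added after the first. This form was found in 12 of the 37 (32.4%) and in 18.6% of tested genes. Of the 11 risers 1 held it, as did 1 of the 3 matched genes that fell and 10 of the 23 that did not pass. These are matches of letters and not measured sites. The 80 bases before the start are shown, 5′ to 3′ on the gene's strand, for 5 genes that rose and 3 that fell, with CACGTG in capitals, so that the sequences of genes with opposite changes can be compared.
Nop2, rose, chr6:125131803-125131882, plus strand: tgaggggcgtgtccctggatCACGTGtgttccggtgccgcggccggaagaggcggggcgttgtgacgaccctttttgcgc
Nop56, rose, chr2:130274332-130274411, plus strand: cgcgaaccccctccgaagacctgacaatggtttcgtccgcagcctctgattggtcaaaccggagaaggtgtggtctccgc
Utp3, rose, chr5:88554382-88554461, plus strand: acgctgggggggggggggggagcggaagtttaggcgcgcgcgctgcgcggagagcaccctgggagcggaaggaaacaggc
Rrp15, rose, chr1:186749359-186749438, minus strand: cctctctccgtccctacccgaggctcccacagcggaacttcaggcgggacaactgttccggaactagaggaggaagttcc
Ncl, rose, chr1:86359456-86359535, minus strand: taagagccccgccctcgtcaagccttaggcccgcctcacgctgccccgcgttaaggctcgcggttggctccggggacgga
Polr1a, fell, chr6:71908973-71909052, plus strand: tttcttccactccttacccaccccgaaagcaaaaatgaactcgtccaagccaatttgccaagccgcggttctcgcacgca
Nop10, fell, chr2:112261846-112261925, plus strand: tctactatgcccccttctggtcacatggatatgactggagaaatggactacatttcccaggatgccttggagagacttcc
Cad, fell, chr5:31054700-31054779, plus strand: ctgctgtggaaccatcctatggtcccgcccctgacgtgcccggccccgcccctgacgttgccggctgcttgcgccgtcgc
Of these 8 windows 1, that of Nop2, holds CACGTG, which begins 60 bases before the start. The same motif lies 20 bases before the start of Utp18 and 208 bases before that of Rrp7a, which did not pass, and 60 bases around each are shown for comparison with Nop2.
Utp18, did not pass, chr11:93885767-93885826, minus strand: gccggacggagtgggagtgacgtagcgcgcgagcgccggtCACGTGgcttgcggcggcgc
Rrp7a, did not pass, chr15:83122977-83123036, minus strand: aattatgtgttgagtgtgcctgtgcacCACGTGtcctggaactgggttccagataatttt
The motif also lies 63 bases before the start of Utp14b. So it stands close to the start in a gene that rose by 0.42 on the log2 scale (Nop2). It also does in genes at 0.36 (Utp14b) and 0.03 (Utp18), which did not pass. Nop2 (adjusted p = 0.0447, edgeR) and Utp14b (0.0779) lie on either side of the threshold, and Utp14b passed under 3 of 16 alternative settings. Whether the motif bears on the changes was not tested.

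Of the 4 nucleolar chaperones and phosphoproteins 3 rose. Npm1 encodes nucleophosmin, an abundant histone and ribosome chaperone of the nucleolus, and had 391, 376 and 277 CPM in Yap-activated libraries, against 141, 144 and 133 CPM in Normal. The Normal libraries were close together and all Yap-activated libraries lay above them, at a log2 fold change of 1.32 (SE 0.15, adjusted p = 0.000189, edgeR). Npm3, its smaller relative, had 26.5, 23.9 and 16.2 CPM in Yap-activated libraries and 12.6, 12.4 and 8.66 CPM in Normal (log2 fold change 0.98, SE 0.23). Ncl, the gene of nucleolin, which binds rRNA and its genes, rose less, with 339, 390 and 326 CPM in Yap-activated libraries against 276, 293 and 272 CPM in Normal (log2 fold change 0.33, SE 0.12, adjusted p = 0.0436, edgeR). Ncl no longer passed when Yap-activated replicate 2 was left out (adjusted p = 0.135, edgeR), without Normal replicate 1, 2 or 3 (0.107, 0.0941 and 0.131) and with no filter on low counts (0.0614). Nolc1, the gene of Nopp140, a chaperone of snoRNPs, had 61.9, 64.3 and 38.8 CPM in Yap-activated libraries and 66.1, 69.3 and 59.4 CPM in Normal and did not pass (log2 fold change -0.24). Reads of Npm1 over those of Ncl were 1.15, 0.963 and 0.852 in Yap-activated libraries, against 0.511, 0.490 and 0.489 in Normal (p = 0.1 in a 2-sided exact permutation test, which cannot go lower with 3 libraries a group, and 0.123 after adjustment over the 16 ratios). Reads of Npm1 over those of Npm3 overlapped between the groups, at 14.7, 15.7 and 17.2 against 11.2, 11.6 and 15.3.

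Per kilobase of exon, Npm1 stood highest of the 47 genes in Yap-activated tissue, at 131 ± 23.1 CPM per kilobase, against 52.2 ± 2.14 in Normal (SD, n = 3). In Normal the highest was Nop10, which had 40.2 ± 3.05 CPM per kilobase in Yap-activated tissue and 56.8 ± 7.15 in Normal. That Normal level of Nop10 does not differ from that of Npm1 beyond the spread between libraries. Wdr12 was lowest in both groups, at 1.66 ± 0.246 and 1.53 ± 0.0738 CPM per kilobase. These levels divide by all annotated exon bases of a gene, which understates genes with long minor transcripts.

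**Figure D4:**
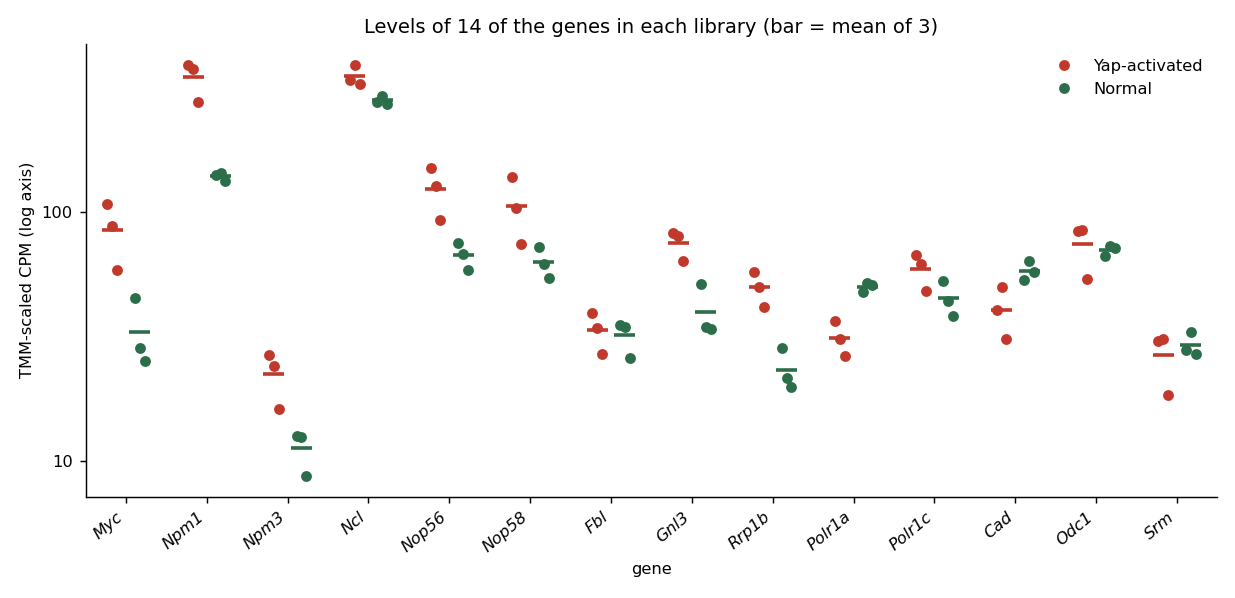
Level of 14 of the genes in each library as TMM-scaled CPM on a log axis, with Yap-activated libraries (red) left of Normal libraries (green) for each gene; short bars are means of 3 libraries. The groups separate for Myc, Npm1, Npm3, Ncl, Nop56, Nop58, Gnl3 and Rrp1b, which are higher in Yap-activated libraries, and for Polr1a and Cad, which are lower, and they overlap for Fbl, Polr1c, Odc1 and Srm.

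Of the 5 RNA polymerase I subunit genes 1 fell and the other 4 were not called. Polr1a encodes the largest subunit, which forms the active site with that of Polr1b. Polr1a had 36.5, 30.7 and 26.3 CPM in Yap-activated libraries against 47.6, 51.6 and 50.8 CPM in Normal. All 3 Yap-activated libraries were below Normal, at a log2 fold change of -0.68 (SE 0.13, adjusted p = 0.00272, edgeR), and the call held without each library in turn. Polr1b had 30.6, 34.1 and 26.0 CPM in Yap-activated libraries and 38.3, 32.7 and 32.8 CPM in Normal, which overlap (log2 fold change -0.19). Polr1c and Polr1d encode the subunit pair shared with RNA polymerase III. Polr1c had 67.3, 61.5 and 48.1 CPM in Yap-activated libraries against 52.9, 43.9 and 38.0 CPM in Normal, and Polr1d had 56.5, 59.9 and 41.8 CPM against 45.6, 39.0 and 36.2 CPM. Their log2 fold changes were both 0.39 and just missed the threshold (adjusted p = 0.0707 and 0.0628, edgeR). Polr1e, the gene of a subunit particular to polymerase I, was at 0.35, with 15.5, 16.1 and 12.1 CPM in Yap-activated libraries and 12.3, 11.5 and 10.4 CPM in Normal. Without Yap-activated replicate 3 these 3 genes passed (adjusted p = 0.0219, 0.00999 and 0.0227), Polr1c also without Normal replicate 1 (0.0420) and Polr1d also with upper quartile scaling (0.0397). The ratio of Polr1a to Polr1c reads was 0.542, 0.500 and 0.548 in Yap-activated libraries and 0.900, 1.18 and 1.34 in Normal, without overlap. Polr1d to Polr1c reads overlapped, at 0.839, 0.974 and 0.869 against 0.862, 0.888 and 0.951.

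Of 15 further genes of the polymerase I machinery 3 rose, 2 fell and 10 did not pass. Taf1d, which encodes a part of the promoter selectivity factor, rose by 1.74 (160, 109 and 108 CPM in Yap-activated libraries, against 50.7, 32.7 and 29.7 CPM in Normal). Polr2h, the gene of a subunit common to all nuclear RNA polymerases, rose by 0.96. Ubtf, which encodes the factor that marks active rRNA genes, fell by 0.50, with 113, 123 and 98.3 CPM in Yap-activated libraries against 156, 159 and 155 CPM in Normal, and was at -0.0043 when library totals alone set the scale. Cd3eap, a polymerase I subunit gene, was called at 0.50 and Taf1c at -0.46. Exons of Taf1d, Polr2h, Cd3eap and Taf1c overlap genes on the opposite strand (Cep295 and 4931406C07Rik, Clcn2, Ercc1 and Dnaaf1), and Taf1c was at 0.037 with library totals alone. Cd3eap no longer passed without any library other than Yap-activated replicate 3 (adjusted p from 0.0504 to 0.127), and the Taf1c call without any library other than Yap-activated replicate 2 (0.0569 to 0.0854). Rrn3, the gene of the initiation factor TIF-IA, was at -0.20 and did not pass.

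Of the 6 snoRNP protein genes 2 rose, 1 fell and the other 3 were not called. Box C/D snoRNPs, which guide ribose methylation, contain Nop56, Nop58 and the methyltransferase fibrillarin, encoded by Fbl. Nop56 had 150.2, 127 and 93.0 CPM in Yap-activated libraries against 75.2, 67.3 and 58.3 CPM in Normal, with no overlap (log2 fold change 0.88, SE 0.18, adjusted p = 0.00409, edgeR). Nop58 had 139, 103 and 74.1 CPM in Yap-activated libraries and 71.9, 61.9 and 53.9 CPM in Normal (log2 fold change 0.75, SE 0.23, adjusted p = 0.0231, edgeR). Nop58 did not pass when Normal replicate 2 or 3 was left out (adjusted p = 0.0710 and 0.0871, edgeR). Fbl had 39.2, 34.0 and 26.9 CPM in Yap-activated libraries against 35.1, 34.5 and 25.9 CPM in Normal and did not pass (log2 fold change 0.07, SE 0.17). Nop56 reads were 3.83, 3.74 and 3.45 times those of Fbl in Yap-activated libraries, and 2.14, 1.95 and 2.25 times in Normal, without overlap. Nop58 reads were 3.53, 3.03 and 2.75 times those of Fbl in Yap-activated libraries, and 2.05, 1.80 and 2.09 times in Normal, again without overlap. Both ratios have an exact permutation p of 0.1, the smallest possible, and 0.123 after adjustment.

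H/ACA snoRNPs guide pseudouridylation and contain dyskerin, the product of Dkc1, with Nop10, Nhp2 and Gar1. Nop10 fell, with 48.5, 42.3 and 42.9 CPM in Yap-activated libraries and 72.0, 60.3 and 56.8 CPM in Normal (log2 fold change -0.50, SE 0.12, adjusted p = 0.00749, edgeR). With library totals alone it was at -0.0041. Dkc1 was at 0.31 and did not pass, with 47.2, 41.9 and 32.4 CPM in Yap-activated libraries against 34.9, 32.4 and 30.7 CPM in Normal; it passed without Yap-activated replicate 3 (adjusted p = 0.0113). Gar1 rose by 0.83, with 41.7, 37.0 and 30.4 CPM in Yap-activated libraries against 22.2, 22.1 and 16.9 CPM in Normal. Nhp2 was called higher at 0.59 (adjusted p = 0.0440, edgeR), though the groups overlapped. It had 60.5, 55.1 and 34.4 CPM in Yap-activated libraries and 36.5, 34.7 and 28.2 CPM in Normal. The ratio of Nop10 to Dkc1 reads was 1.03, 1.01 and 1.33 in Yap-activated libraries and 2.06, 1.86 and 1.85 in Normal, without overlap. Rrp9, a protein gene of the U3 snoRNP, was at 0.41 and did not pass (adjusted p = 0.0866, edgeR), and passed without Yap-activated replicate 3 (0.00654). Of 12 further snoRNP and snoRNP assembly genes 5 rose, 0 fell while 7 stayed short of the threshold, the largest rise being that of Znhit3, an assembly factor gene, at 1.22. Snu13, at 0.47, no longer passed without Yap-activated replicate 2 (adjusted p = 0.0543) or Normal replicate 2 or 3 (0.0612 and 0.0608).

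Many snoRNA genes lie in introns of host genes, and splicing of the host releases them. In GENCODE 8 of the 47 hold at least 1 annotated snoRNA within their bounds on their own strand, with 5 in Nop56 and 4 in Nop58. Whether each lies in an intron was not checked. Of these 8 hosts Gnl3, Nop56, Nop58, Wdr43 and Ncl rose, Nop53 fell, and Dkc1 and Odc1 did not pass. The calls of Ncl, Nop58 and Nop53 were each lost when certain single libraries were left out. The median log2 fold change of the 8 hosts was 0.46, against 0.11 in the 39 others, of which 8 rose and 5 fell. Over all genes tested 29.8% were higher and 29.7% lower, with a median of 0.01. Whether hosts differ from other genes was not tested. The libraries were made from poly(A) RNA, so the snoRNAs themselves were not measured.

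In the small subunit processome and 40S assembly 3 of 16 genes rose, 2 fell and 11 did not pass. Utp3 encodes a processome factor and had 58.8, 52.4 and 43.8 CPM in Yap-activated libraries, against 29.9, 33.0 and 28.6 CPM in Normal (log2 fold change 0.76, SE 0.13, adjusted p = 0.00155, edgeR). Utp15 and Wdr43 encode parts of the subcomplex that binds first, during transcription. Utp15 had 29.8, 32.2 and 28.3 CPM in Yap-activated libraries and 19.8, 19.5 and 20.0 CPM in Normal, a log2 fold change of 0.60 (SE 0.10). Wdr43 had 86.8, 76.3 and 64.0 CPM in Yap-activated libraries against 54.0, 52.5 and 43.8 CPM in Normal (0.59, SE 0.14). Utp4, of the same subcomplex, was at 0.01, with 34.3, 28.2 and 23.6 CPM in Yap-activated libraries and 30.0, 29.4 and 26.0 CPM in Normal. Utp11 fell, with 68.1, 75.0 and 64.0 CPM in Yap-activated libraries against 112, 101 and 87.6 CPM in Normal (log2 fold change -0.54, SE 0.12, adjusted p = 0.00553, edgeR). The ratio of Utp11 to Utp3 reads was 1.16, 1.43 and 1.46 in Yap-activated libraries and 3.74, 3.07 and 3.06 in Normal, without overlap. Rrp12, whose yeast counterpart serves export of the subunits, was called at -0.40 (adjusted p = 0.0485, edgeR). That call was lost without Yap-activated replicate 2 or 3 (0.0719 and 0.0854), without Normal replicate 1, 2 or 3 (0.0954, 0.131 and 0.0936), under 4 other settings that kept its sign, and with library totals alone, which turned it.

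The 11 genes of this group that did not pass, Utp4 among them, were at -0.28 (Utp6) to 0.37 (Nop9). Utp14b, Rrp36, Utp23, Rrp7a and Utp14a were at 0.36, 0.22, 0.21, 0.16 and 0.12, and Utp18, Utp20 and Nop14 at 0.03, 0.02 and -0.01. Utp6 did not overlap between the groups, with 34.9, 34.6 and 28.2 CPM in Yap-activated libraries and 36.6, 41.0 and 40.8 CPM in Normal. Nop9 and Utp14b passed without Yap-activated replicate 3 (adjusted p = 0.0106 and 0.0333, edgeR) and with upper quartile scaling (0.0372 and 0.0463). Exons of Nop9 overlap those of Cideb on the opposite strand, and those of Rrp7a overlap Serhl. Utp14b is a retrogene copy of Utp14a in the Acsl3 locus and shares exon bases with Acsl3, so reads of these genes may be shared. Of 39 further 40S assembly genes tested, 13 rose, 5 fell and 21 did not pass. Krr1, Dcaf13 and Noc4l, processome genes, rose by 0.95, 0.51 and 0.73, while Tsr1, Nol6 and Dhx37 fell, at -0.86, -0.60 and -0.47 on the log2 scale; with library totals alone Nol6 was at -0.11 and Dhx37 at 0.022. Krr1 and Tsr1 have exons that overlap genes on the opposite strand, Glipr1 and Srr.

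Among 60S assembly genes 4 of 11 rose, 1 fell and 6 did not pass. Rrp1b, a paralog of Rrp1 that also binds chromatin, had 57.4, 50.0 and 41.4 CPM in Yap-activated libraries against 28.3, 21.5 and 19.8 CPM in Normal (log2 fold change 1.10, SE 0.17, adjusted p = 0.00102, edgeR). Rrp1 itself had 132, 137 and 129 CPM in Yap-activated libraries and 133, 131 and 127 CPM in Normal, at 0.03 with an SE of 0.09. The ratio of Rrp1b to Rrp1 reads was 0.434, 0.365 and 0.321 in Yap-activated libraries against 0.213, 0.164 and 0.156 in Normal. Gnl3, the gene of the GTP-binding protein nucleostemin, had 82.0, 79.6 and 63.5 CPM in Yap-activated libraries and 51.1, 34.3 and 33.7 CPM in Normal (0.92, SE 0.19). Rrp15 was called at 0.57 and Nop2, the gene of a 28S rRNA methyltransferase, at 0.42 (adjusted p = 0.0339 and 0.0447, edgeR). Nop2 had 56.9, 52.0 and 37.7 CPM in Yap-activated libraries against 37.4, 37.0 and 35.1 CPM in Normal. Both calls were lost without any library other than Yap-activated replicate 3 (adjusted p from 0.0629 to 0.121 for Rrp15 and from 0.0983 to 0.129 for Nop2), and by limma voom (0.0651 and 0.0676).

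Pes1, Bop1 and Wdr12 encode the PeBoW complex, which is needed for processing of the 60S rRNAs. None of the 3 passed by edgeR or under the other tools, and with library totals alone Pes1 and Wdr12 did. Pes1 had 48.6, 49.4 and 46.0 CPM in Yap-activated libraries and 45.5, 49.8 and 41.1 CPM in Normal. Bop1 had 48.2, 50.8 and 35.0 CPM in Yap-activated libraries against 53.2, 54.5 and 46.1 CPM in Normal, and Wdr12 had 22.3, 20.7 and 16.6 CPM against 19.0, 18.6 and 17.3 CPM. Their log2 fold changes were 0.08, -0.20 and 0.11, with SEs of 0.10 to 0.15. The ratio of Wdr12 to Bop1 reads was 0.463, 0.407 and 0.475 in Yap-activated libraries and 0.357, 0.341 and 0.376 in Normal (exact permutation p = 0.1, the smallest possible, and 0.123 after adjustment). Nop53, a late 60S factor, was called at -0.32 with 72.0, 84.6 and 68.4 CPM in Yap-activated libraries against 91.6, 99.9 and 89.0 CPM in Normal (adjusted p = 0.0375, edgeR). It passed without Yap-activated replicate 2 and did not without any other library (0.0611 to 0.132). Nop16 and Wdr74 were at 0.19 and -0.09, and Rrp8, which methylates a base of the 28S rRNA, was at 0.08; none of them passed, except Nop16 without Yap-activated replicate 3 (0.0455) and, with library totals alone, all 3.

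Further 60S assembly genes numbered 50, of which 18 rose, 6 fell and 26 did not pass. Las1l, which encodes a nuclease of the internal spacer of the precursor, had 223, 195 and 256 CPM in Yap-activated libraries and 59.4, 54.3 and 54.6 CPM in Normal (log2 fold change 2.00, SE 0.13). Mrto4, a factor gene of stalk assembly, and Sbds, which acts late in 60S maturation, rose by 1.16 and 0.51. Ddx24, a helicase gene, fell by 1.17, with 44.9, 45.7 and 41.5 CPM in Yap-activated libraries against 92.7, 101 and 103 CPM in Normal. Ddx50, another helicase gene, and Efl1, which encodes the partner of Sbds, fell, at -0.56 and -0.49, and neither was called with library totals alone (-0.062 and 0.0048). Of 18 tested genes of the RNA exosome and rRNA trimming 10 rose, 1 fell and 7 did not pass. Exosc8 and Mphosph6, an exosome subunit and a cofactor, rose by 1.48 and 1.60, and the exonuclease gene Eri1 by 0.93, whereas the exosome subunit gene Exosc5 fell by 0.87.

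**Figure D5:**
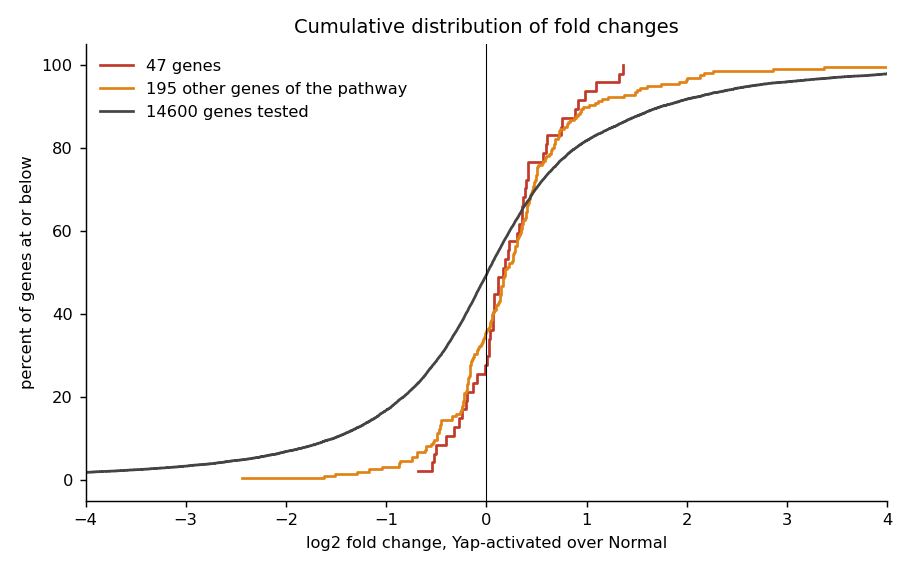
Cumulative percent of genes (y axis) at or below each log2 fold change, Yap-activated over Normal (x axis, shown from -4 to 4), for the 47 genes, 195 other genes of the pathway and all 14600 genes tested. The 47 genes span -0.68 to 1.37, a narrower range than that of all genes, with a median of 0.16.

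None of the 3 metabolic enzymes, which are classical Myc targets, was called higher by edgeR, except Odc1 when library totals alone set the scale. Odc1, the rate-limiting enzyme of polyamine synthesis, had 83.6, 84.3 and 53.7 CPM in Yap-activated libraries against 66.3, 73.2 and 71.7 CPM in Normal. The Normal range lies within that of Yap-activated tissue, and the log2 fold change was 0.07 (SE 0.17). Srm, spermidine synthase, had 30.3, 30.9 and 18.3 CPM in Yap-activated libraries and 27.8, 32.7 and 26.8 CPM in Normal (-0.14, SE 0.21). Other polyamine genes changed by more. Of 17 further genes 6 rose, 4 fell and 7 were not called. The 3 with the smallest p among risers were the catabolic enzymes Sat1, Smox and Paox. Sat1, which acetylates spermidine and spermine, had 579, 828 and 771 CPM in Yap-activated libraries against 109, 101 and 89.4 CPM in Normal (log2 fold change 2.86, SE 0.18, adjusted p = 8.92e-06, edgeR). Smox and Paox, which encode polyamine oxidases, rose by 2.26 and 2.17, and exons of Paox overlap Echs1 on the opposite strand. Genes of synthesis were called in both directions. Sms, the gene of spermine synthase, rose by 0.91 without overlap (adjusted p = 0.00223, edgeR), and Amd1 was called at -0.30 (0.0439). Slc3a2, Atp13a2 and Oaz3, which encode an amino acid transporter chain, a polyamine transporter and an antizyme, fell, at log2 fold changes of -0.61, -0.69 and -1.63, and the Oaz3 call was not made by DESeq2 (adjusted p = 0.0670). With library totals alone Slc3a2 was at -0.12 and Atp13a2 at -0.19, and neither passed. Oaz3 was barely detected, with 0.169, 0.119 and 0.112 CPM in Yap-activated libraries against 0.466, 0.380 and 0.379 CPM in Normal, and its exons overlap those of Tdrkh and Mrpl9 on the opposite strand, Tdrkh over most of their length.

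Cad encodes the enzyme of the first 3 steps of pyrimidine synthesis. It had 40.3, 49.9 and 30.8 CPM in Yap-activated libraries and 53.4, 63.4 and 57.1 CPM in Normal (log2 fold change -0.52, SE 0.17, adjusted p = 0.0307, edgeR). The call was lost without Yap-activated replicate 1 or 3 (adjusted p = 0.0722 and 0.0614) and without Normal replicate 1, 2 or 3 (0.0502, 0.0996 and 0.0725). The later enzymes on the way to UMP also fell. Dhodh had 11.8, 12.4 and 10.4 CPM in Yap-activated libraries against 18.3, 19.3 and 18.1 CPM in Normal (-0.69), and Umps had 25.6, 21.8 and 17.4 CPM against 59.2, 61.5 and 63.1 CPM (-1.51, SE 0.15). With library totals alone Cad, Dhodh and Umps kept their sign, and Cad and Dhodh did not pass, at -0.036 and -0.20. Ctps, which turns UTP into CTP, rose by 1.99, with 111, 76.1 and 62.8 CPM in Yap-activated libraries and 24.1, 19.9 and 18.8 CPM in Normal. In all, 6 of 20 further nucleotide synthesis genes rose, 8 fell and 6 were not called, and Adss and Dut, of AMP synthesis and dUTP removal, rose by 0.88 and 1.11. The largest fall of these was that of Prps2, which makes the ribose donor of nucleotides, at -2.44.

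Proteins that link the nucleolus to p53 were listed as well, since free ribosomal proteins of the 60S subunit restrain Mdm2, the ligase that degrades p53. Of 8 genes 7 rose, 0 fell and 1, Rpl11, did not pass at 0.27 (edgeR, adjusted p = 0.163). Rpl5, the gene of another 60S ribosomal protein, rose by 0.73 without overlap between the groups (adjusted p = 0.00511, edgeR). It had 149, 148 and 136 CPM in Yap-activated libraries against 105, 88.5 and 66.9 CPM in Normal. Mdm2 had 181, 182 and 200.3 CPM in Yap-activated libraries against 64.8, 64.7 and 65.2 CPM in Normal (log2 fold change 1.53, SE 0.09). Trp53 and Cdkn2a, the genes of p53 and of p16 and Arf, rose by 0.69 and 6.39. Cdkn2a had 8.54, 9.11 and 6.32 CPM in Yap-activated libraries. In Normal it was barely detected, at 0.146, 0.0950 and 0.0316 CPM, so its fold change rests on few reads there. Over all 195 other pathway genes tested, 74 rose, 28 fell and 93 did not pass, with a median log2 fold change of 0.19. The background for this count, and for that of each list above, is all genes tested. Of these, 29.8% were higher, 29.7% lower and 59.5% called in either direction, with a median of 0.01.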

How the data were processed

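RNA was measured in 6 libraries made with a stranded poly(A) kit and read as 50 bp pairs, per the labels. The authors deposited 1 table of raw read counts per gene symbol, not normalized; no column was left out. STAR 2.4.2a and DESeq2 are listed, with GRCm38 and mm10 as builds, in the submitters' processing notes. The sources used here do not say which program counted the reads, or with what strand setting and annotation. So reads of overlapping genes or paralogs may be shared. Besides the overlaps named above, exons of Znhit3, Mxd3, Exosc8 and Exosc5 overlap Myo19, Prelid1, Supt20 and Tmem91 on the opposite strand. Among the 47 genes, exons of Rrp8 also overlap Ilk in this way and those of Pes1 overlap 4930556J24Rik. Shorter overlaps of this kind are annotated for Rrp1b, Gnl3, Nop56, Rrp9, Dkc1, Wdr12 and Bop1. Tests on the counts used edgeR 4.0.16 under R 4.3.3 (filterByExpr with minimum count 10, TMM, robust quasi-likelihood F-test, Benjamini-Hochberg over 14600 genes); the SE is the log2 fold change over the square root of F. The test was checked on simulated counts in which few genes changed, as many up as down. That check does not bear on how the scaling acts when many genes differ, as here. Alternatives were other scalings, filters and dispersions, DESeq2 1.42.0, limma 3.58.1 voom, a replicate block and leaving out each library. Coordinates, exon lengths and snoRNAs came from GENCODE mouse release 21 (GRCm38), in which all 47 genes were found. Every one of the 47 genes is accounted for. Of each other list the 3 smallest p in each direction were taken to be named. Max, Rrn3, Rpl11, Rpl5, Nhp2, Sms, Amd1 and Ptma were added after their values were seen. The genes and lists were chosen with earlier results of these data known. Replicates of a group differed by more than sampling noise.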

Additional observations from a re-analysis of the deposited data

How the results depend on the processing

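Of the 13 genes called higher, 9 (Gnl3, Myc, Nop56, Npm1, Npm3, Rrp1b, Utp15, Utp3 and Wdr43) were called higher under all 16 alternatives. Of the 6 called lower, Nop10, Polr1a and Utp11 were called lower under all but library totals alone. With library totals alone 36 of the 47 genes were higher and 0 lower, 143 other pathway genes were higher and 7 lower, 7522 of all genes were higher and 2299 lower, and the median of the 47 was 0.65. Signs then turned for Bop1 (0.29), Nolc1 (0.25), Nop14 (0.48), Nop53 (0.17), Polr1b (0.30), Rrp12 (0.088), Srm (0.35), Utp6 (0.21), Wdr74 (0.40), Taf1c (0.037), Dhx37 (0.022) and Efl1 (0.0048). Under the upper quartile 16 of the 47 genes were higher (Nop9, Polr1d and Utp14b added) and 5 lower, and Nop14 was at 0.038, and by voom Utp18 was at -0.010 and Utp4 at -0.030. Leaving out each library gave 9 to 21 of the 47 genes higher, 3 to 5 lower, and 46 to 86 other pathway genes higher. Genes near 0 changed sign in that way, within -0.067 to 0.21 for Fbl, -0.044 to 0.26 for Odc1, -0.069 to 0.19 for Utp18, -0.13 to 0.14 for Utp4, -0.0026 to 0.052 for Rrp1, -0.078 to 0.15 for Utp20, -0.062 to 0.088 for Nop14, -0.27 to 0.080 for Srm, -0.25 to 0.041 for Wdr74 and -0.0067 to 0.21 for Utp14a. The cause was not tested. With the replicate number as a block 17 genes were higher (Nop9, Polr1c, Polr1d and Rrp9 added) and 6 lower, and Utp4 was at -0.0042. Deviations of libraries with the same number correlated at 0.04, 0.0027 and 0.069 across all genes tested. Yap-activated replicates 1 and 2 correlated best with another number. Since these correlations run over all genes tested, they cannot decide whether libraries of the same number vary together in the 47 genes. Replicate 3 was lowest for 46 of the 47 among Yap-activated libraries and for 39 among Normal. Rrp12 was lost with DESeq2 size factors, the upper quartile, a filter of 1 CPM in 3 libraries and non-robust dispersions (adjusted p from 0.0507 to 0.0778, edgeR).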
